A study of Caenorhabditis elegans with 2 samples.

Results

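Globins are heme proteins that bind oxygen and other small gaseous ligands or carry out redox reactions. Nematodes have no red blood cells, and the globins of Caenorhabditis elegans lie inside cells, in muscle and, for most of those mapped with reporter genes, in neurons. The family is large and diverse: some members resemble vertebrate myoglobin or neuroglobin, others act in oxygen sensing or redox signalling, and 1 is fused to a membrane receptor.

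The globin genes were taken as the rows of the deposited gene table whose name is glb followed by a number, which gave 33 genes (glb-1 to glb-33) of 46233 rows, all annotated as protein-coding. A further gene that Ensembl release 115 calls glb-34 is listed in the table as Y57G11B.97, at 0.406 FPKM in the wild type and 0.295 FPKM in the mutant, and is not among the 33. FPKM counts the fragments of a gene per length of transcript and per size of library, so that levels can be compared between genes.

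The data were 1 library of the wild type strain N2 and 1 library of strain VC2324, whose genotype is given as flp-6 mutant. The flp-6 gene encodes FMRFamide-like neuropeptides. Both libraries held total RNA from whole fourth-stage larvae (L4) kept at 25 °C. The allele, the number of animals and any outcrossing are not given in the sources used here. With 1 library per genotype no value has an error between animals or cultures, no test was possible, and each difference below is one between 2 libraries. In whole animals, fewer cells of a type and less RNA per cell cannot be told apart.

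The targeted gene had 4.40 FPKM in the mutant, 7.59% of its level in N2. The depth of each library is unknown. The FPKM values of all genes summed to 1414572 in N2 and 989473 in the mutant. Averaged over both libraries, 13436 genes reached 1 FPKM, and their median log2 difference was -0.10. Rescaling the mutant library to the same sum moved that median by 0.45, rescaling to the same upper quartile moved it by 0.19, and setting the median of genes averaging 5 FPKM or more to 0 moved it by 0.16. Differences are log2((mutant FPKM + 1)/(N2 FPKM + 1)), mutant against N2, and understate the change of low genes.

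Transcripts of all 33 globin genes were listed above the table's floor of 0.0001 FPKM in both libraries, against 80.2% of all protein-coding rows. Most were scarce. A mean of at least 1 FPKM, taken here as measurable, was reached by 14 of the 33 (42.4%), against 61.6% of protein-coding rows and 29.1% of all rows. Only 2 members had a mean of at least 5 FPKM, 7 lay between 2 and 6 FPKM, 5 between 1 and 2 FPKM, 7 between 0.5 and 1 FPKM and 12 under 0.5 FPKM. At the boundary, glb-25 lay just inside with a mean of 1.08 FPKM and glb-15 just outside with a mean of 0.909 FPKM.

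**Figure D1:**
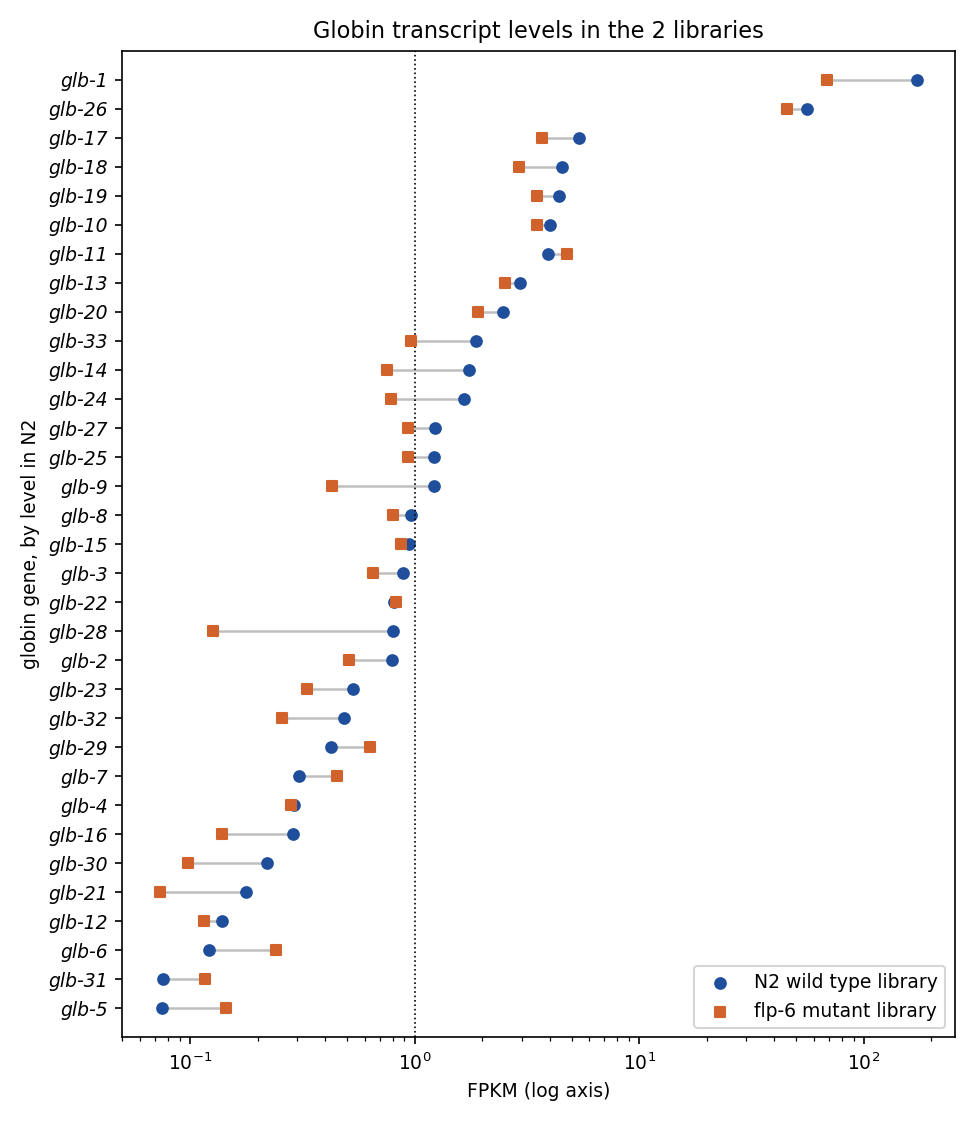
FPKM (log axis) of the 33 globin genes in the N2 library (circles) and the flp-6 mutant library (squares), ordered by the N2 level, with a dotted line at 1 FPKM. The genes glb-1 and glb-26 stand apart from the other 31 in both libraries, and the widest gap between libraries among measurable genes is that of glb-1, at 68.4 against 172.2 FPKM.

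As listed, most of the family's FPKM stood under 2 genes. Together glb-1 and glb-26 made up 83.6% of the summed globin FPKM in N2 and 76.9% in the mutant library. Of the sum, glb-1 alone held 63.0% in N2 and 46.2% in the mutant, and the level of glb-26 is uncertain because its exons overlap another gene, as described with its values. The other 31 genes summed to 44.9 FPKM in N2 and 34.3 FPKM in the mutant library. In N2, glb-26 stood 10.4-fold above the next globin, and in the mutant library 9.55-fold. The ranking of the 33 levels was similar in both libraries, with a Spearman's rho of 0.932 across genes, which share the same 2 libraries and are not independent replicates.

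The myoglobin-like glb-1, known from body wall muscle, was the only measurable globin whose log2 difference with the pseudocount of 1 FPKM passed 2-fold. By plain ratio 8 of the 33 globins, 3 of them measurable, stood at or under 50% of N2. Of the 3456 genes averaging 0.1 to 1 FPKM above the floor in both libraries, 22.2% did. No plain-ratio share over all genes is given here, so this count is not read as particular to the globins. The glb-1 transcript was listed at 172.2 FPKM in N2 and at 68.4 FPKM in the mutant library, 39.7% of the wild type level, a log2 difference of -1.32. It was the highest globin in both libraries, yet its lead over glb-26 was 3.07-fold in N2 and 1.503-fold in the mutant library. Among all 46233 rows it ranked 1231 in N2 and 2324 in the mutant library. In the authors' deposited table glb-1 had the lowest p-value of the family, 0.0881, with a q-value of 0.951, from a comparison of these libraries and not of the genotypes. None of the 33 globins had a p-value under 0.05 in the authors' deposited table (0 of 33), against 1.58% of all rows. Of rows with a p-value under 1 in that deposited table, among them 26 globins, 4.66% were under 0.05.

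Other genes of like level or length also stood 2-fold or more below N2. Of all 13436 genes 11.3% did so, and of the 2905 genes averaging 50 to 300 FPKM 20.8% did, while 6.51% of the latter reached the difference of glb-1 or below. The annotated transcript of glb-1 is short (594 nt, 2 exons, WBGene00014030, reverse strand of chromosome III from 8922399 to 8923290 in WBcel235), and short transcripts were mostly lower in this library. Of the 329 genes with transcripts of 587 to 639 nt, 28.3% were at least 2-fold lower and 8.81% reached the difference of glb-1 or below. After subtracting the median of genes of like length, glb-1 stood at -0.72 on the log2 scale, no longer past 2-fold, and 9.54% of 12999 genes stood there or lower. Rescaled to the same sum, its log2 difference was -0.81, with the same upper quartile -1.10 and with the median set to 0 -1.14.

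Markers of body wall muscle stood on the other side of N2 from glb-1. All 5 were higher by any amount as deposited, against 44.3% of all genes. Rescaling to the same sum, to the same upper quartile and with the median set to 0 multiplied the mutant values by 1.43, 1.17 and 1.13. A gene higher as deposited stays higher under such factors, so the rescalings could not change the count of 5. Of all genes, 67.7%, 54.7% and 52.7% were then higher. The mutant value of 3 of the 5 markers was 2-fold or more above N2, against 10.5% of all genes. The median log2 difference of the 5 was 1.19. The thick filament genes unc-54, a myosin heavy chain, and unc-15, paramyosin, had 393.1 against 127.8 FPKM and 544.6 against 238.2 FPKM, mutant against N2. Their transcripts are long, and long transcripts were mostly higher. The shorter mlc-1, a myosin light chain, had 524.3 against 520.7 FPKM, and unc-27, a troponin I, had 931.2 against 856.7 FPKM. With the length trend removed, 0 of the 5 markers stayed past 2-fold, against 10.9% of all genes, and their median was 0.69, opposite in sign to glb-1. In the deposited table glb-1 shares its locus field with ZK637.12 on the opposite strand, which had 3.58 FPKM in N2 and 7.95 FPKM in the mutant. The annotation used here gives the pair no common exon bases, and the part of ZK637.12 in the glb-1 value was not tested.

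The second most abundant globin, glb-26, is an N-myristoylated redox-sensing globin known from a few muscle and mesodermal cells. It was listed at 56.04 FPKM in N2 and 45.5 FPKM in the mutant library, 81.2% of the wild type level, a log2 difference of -0.29. The sign turned once length was accounted for, to 0.21, and under rescaling to the same sum, to 0.21. Its level is uncertain. The gene (WBGene00011913) lies on the reverse strand of chromosome I from 7937438 to 7938487 in WBcel235, and 648 of its exon bases (81.9%) are also exon of the protein-coding T22C1.1 on the forward strand. The TruSeq version 2 RNA kit named in the labels does not mark strand, so that reads from the shared bases cannot be assigned to either gene. T22C1.1 was listed at 141.8 FPKM in N2 and 104.0 FPKM in the mutant library, 73.3% of the wild type level. How much of the glb-26 value comes from T22C1.1 was not tested.

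**Figure D2:**
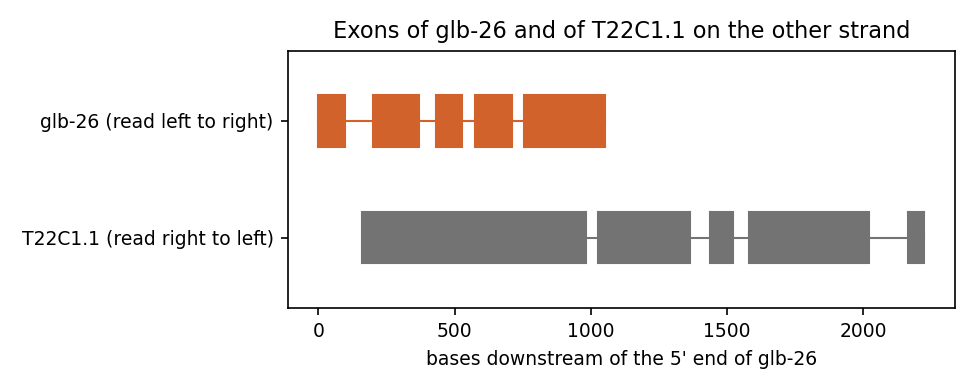
Exons (boxes) of glb-26 and of T22C1.1 on the opposite strand, drawn to scale in bases downstream of the 5′ end of glb-26. The last exon of T22C1.1, 823 bases long, runs across most of glb-26, and 81.9% of the glb-26 exon bases are shared.

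Next in level in N2 came 5 genes between 3.94 and 5.38 FPKM. They were glb-17 at 5.38 FPKM in N2 and 3.68 FPKM in the mutant library, glb-18 at 4.52 and 2.93 FPKM, and glb-19 at 4.40 and 3.50 FPKM. The other two were glb-10 at 3.997 and 3.50 FPKM and glb-11 at 3.94 and 4.77 FPKM. With 1 library per genotype there is no spread by which to separate neighbours in this order. As deposited only glb-11 was higher in the mutant library, where it was the third globin against the seventh in N2. Its log2 difference of 0.22 was the highest of the 14 measurable members and remained the highest after centring by length, at 0.51.

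Of these 5, glb-17 shares 10.4% of its exon bases with F49E2.2, and glb-18 shares 8.70% with F52A8.5, both on the opposite strand. The F52A8.5 gene, which the newer annotation calls gcsh-2, had 299.3 FPKM in N2 and 163.6 FPKM in the mutant library, far above glb-18. Its mutant level was 54.6% of N2, beside 64.8% for glb-18. The part of F52A8.5 reads in the glb-18 value was not tested.

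The neuroglobin-like glb-13, which protects against oxidative stress, was listed at 2.94 FPKM in N2 and 2.52 FPKM in the mutant library, a log2 difference of -0.16. The glb-20 gene had 2.48 FPKM in N2 and 1.92 FPKM in the mutant library. Both differences were above 0 when rescaled to the same sum, and after centring by length they were 0.060 and -0.040.

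The remaining 5 measurable genes lay near the lower limit. The glb-33 gene, which encodes a globin domain joined to a neuronal transmembrane receptor, was listed at 1.88 FPKM in N2 and 0.968 FPKM in the mutant library, 51.4% of the wild type level. The glb-14 gene had 1.74 and 0.754 FPKM in N2 and the mutant library, and glb-24 had 1.66 and 0.788 FPKM. Both were under 50% of the wild type level as plain ratios, but their log2 differences of -0.64 and -0.57 did not pass 2-fold, because the pseudocount of 1 FPKM weighs on values this low. The glb-27 gene had 1.23 and 0.936 FPKM, and glb-25 had 1.22 and 0.934 FPKM, 76.2% and 76.3% of the wild type level. In the authors' deposited table the p-values of glb-33, glb-14 and glb-24 were 0.456, 0.699 and 0.555.

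After centring by length, glb-33 at -0.51 and glb-24 at -0.44 were the lowest members besides glb-1. They stood at -0.55 and -0.57 before centring. Their transcripts of 1886 and 1573 nt are the longest of the measurable globins, and the medians subtracted for these lengths were -0.042 and -0.13. The glb-24 gene shares 6.74% of its exon bases with R90.12, a noncoding RNA on the opposite strand that was listed at the floor of 0.0001 FPKM in N2 and at 11.1 FPKM in the mutant. Its part in the glb-24 value was not tested.

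Taking the 14 measurable globins as a group, 13 were lower in the mutant library by any amount as deposited, against 55.7% of all genes, but rescaled to the same sum 6 of these 14 were lower and 8 were higher. Those 8 were glb-26, glb-19, glb-10, glb-11, glb-13, glb-20, glb-27 and glb-25. With the same upper quartile 11 were lower and 3 higher, and with the median set to 0 13 were lower and 1 higher. Of all genes, 67.7% were higher with the same sum, 54.7% with the same upper quartile and 52.7% with the median set to 0. Relative to the median of all 13436 genes, 13 of the 14 lay below it as deposited. Each of these 3 scalings multiplies all mutant values by the same factor and moves that median along with the globins. The same count of 13 under each scaling is therefore no separate check. The median log2 difference of the 14 was -0.28, beside -0.10 over all genes. Apart from glb-1 the differences ran from -0.64 to 0.22, and the median without glb-1 was -0.26. Of the 14, 1 (7.14%) was 2-fold or more lower, beside 11.3% of all genes, and 0 were 2-fold or more higher, beside 10.5%.

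**Figure D3:**
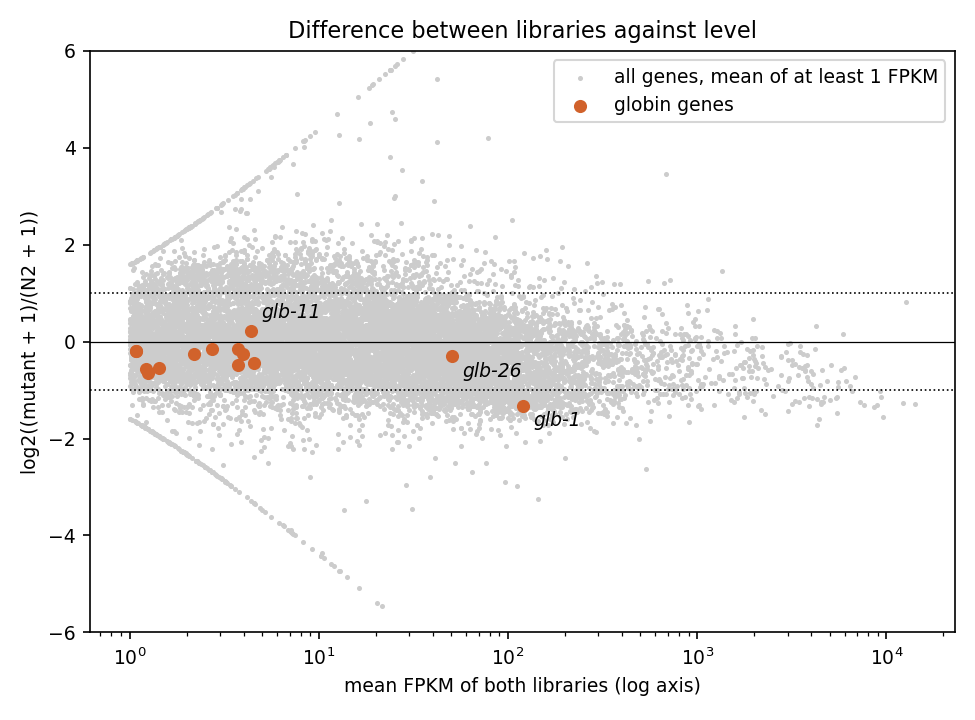
Log2 difference, mutant against N2, against the mean FPKM of both libraries (log axis) for all genes averaging at least 1 FPKM (grey, 27 genes lie beyond the vertical axis) and for the 14 measurable globins (orange), with dotted lines at 2-fold. Of the globins only glb-1, at -1.32, lies beyond a dotted line, and only glb-11, at 0.22, lies above 0.

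Genes of like transcript length were shifted too. The measurable globins have a median transcript length of 1130 nt, and genes of the lengths of these members had median differences between -0.60 and -0.042. After centring by length, 7 of the 14 were lower and 7 were higher, against 49.8% lower among all 12999 genes, and their median was -0.019. None was then past 2-fold in either direction, against 3.16% lower and 10.9% higher among all genes. Among the 33 globins themselves, the ratio of mutant to N2 level had a Spearman's rho of 0.053 with transcript length and -0.15 with mean level across genes. The range of lengths in the family, 594 to 1886 nt, is narrow beside that of all genes.

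The 19 globins under a mean of 1 FPKM were scattered in both directions. Of these, 13 were lower and 6 higher in the mutant library as plain ratios (68.4% lower), against 55.4% lower among the 3456 genes averaging 0.1 to 1 FPKM above the floor in both libraries. Their median level in the mutant library was 83.2% of N2, beside 89.7% for those 3456 genes. Ratios at or under 50% occurred in 5 of the 19, against 22.2% of the 3456 genes, and ratios at or over 2 in 0, against 20.4%. No counting error is known for ratios at these levels.

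Among the low members with a mean of 0.5 to 1 FPKM, glb-15 was listed at 0.946 FPKM in N2 and 0.872 FPKM in the mutant library, glb-8 at 0.962 and 0.8003 FPKM, and glb-22 at 0.805 and 0.826 FPKM. The glb-3 gene had 0.886 and 0.650 FPKM, glb-2 had 0.792 and 0.510 FPKM, and glb-29 had 0.426 FPKM in N2 and 0.631 FPKM in the mutant library. The lowest ratio of these 7 was that of glb-9, at 1.21 FPKM in N2 and 0.428 FPKM in the mutant library, 35.2% of the wild type level, and the authors' deposited table gave it a p-value of 0.252. The glb-28 gene, named here after its values were seen, had the lowest ratio of the family, at 0.7999 FPKM in N2 and 0.127 FPKM in the mutant library. The authors' deposited table gave it a p-value of 0.222. Of the genes above, glb-15 shares its locus field and 2.86% of its exon bases with nlp-24 on the opposite strand. The nlp-24 gene had 129.7 FPKM in N2 and 209.2 FPKM in the mutant library, far above glb-15, and its part in the glb-15 value was not tested.

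The globins known from oxygen-sensing neurons and from the gonad were among the 12 members with a mean under 0.5 FPKM. The glb-5 gene, which tunes the responses of oxygen-sensing neurons and carries a laboratory-derived duplication in N2, was listed at 0.0753 FPKM in N2 and 0.144 FPKM in the mutant library. Its neighbour glb-6, which encodes a globin with a hexacoordinate heme, lies 3920 bases away on chromosome V and had 0.122 FPKM in N2 and 0.242 FPKM in the mutant library. The glb-12 gene, which encodes a redox-active globin needed for reproduction, had 0.138 FPKM in N2 and 0.116 FPKM in the mutant library. For these 3 genes and 4 others the authors' deposited table gave a p-value of 1. Neuronal markers were clearly present, with rab-3, a synaptic vesicle GTPase, at 7.35 FPKM in N2 and 6.65 FPKM in the mutant library.

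None of the 10 genes of oxygen sensing in neurons that were listed beside the globins reached a mean of 1 FPKM, so that they could not be judged. They include the soluble guanylyl cyclases gcy-31 to gcy-37, the neuropeptide receptor npr-1 and the channel subunits tax-2 and tax-4. The highest was gcy-35, at 0.485 FPKM in N2 and 0.442 FPKM in the mutant library. Summed over the list, the level was 1.98 FPKM in N2 and 1.604 FPKM in the mutant library.

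The hypoxia-inducible factor pathway, which adjusts gene expression to low oxygen, was measurable in full. All 7 members were lower in the mutant library by any amount, against 55.7% of all genes, and 0 by 2-fold, against 11.3%. Their median log2 difference was -0.45, or -0.41 with the length trend removed. Rescaled to the same sum, 3 were lower and 4 higher, and the median was 0.050, while that of all genes was 0.35. With the same upper quartile 5 were lower and 2 higher, with a median of -0.23 beside 0.091 over all genes. With the median set to 0, 6 were lower and 1 higher, with a median of -0.27 beside 0.053. The most different were vhl-1, the ubiquitin ligase adaptor that targets HIF-1 for degradation, at 14.8 against 26.003 FPKM, and aha-1, the dimerization partner of HIF-1, at 12.4 against 19.7 FPKM in the mutant and N2 libraries. They were followed by swan-1, which encodes a WD40 protein, at 15.2 against 23.4 FPKM and cysl-1, a regulator of the prolyl hydroxylase egl-9, at 21.4 against 29.5 FPKM. The hif-1 gene itself had 62.3 against 70.9 FPKM.

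Of 5 genes known to be induced by HIF-1, 4 were lower by any amount, against 55.7% of all genes. The fifth, F22B5.4, was past 2-fold in the other direction, against 10.5% of all genes, at 14.4 against 6.25 FPKM. The lower ones included cysl-2, a cysteine synthase homologue, at 11.6 against 21.6 FPKM, sqrd-1, a sulfide quinone oxidoreductase, at 6.20 against 9.32 FPKM, and phy-2, a collagen prolyl hydroxylase subunit, at 16.4 against 23.5 FPKM. The other lower gene, nhr-57, differed little, at 3.68 against 3.84 FPKM. Its log2 difference of -0.049 turned to 0.079 with the length trend removed. The median of the 5 was -0.49, and -0.44 with the length trend removed. Rescaled to the same sum 2 were lower and 3 higher, at a median of 0.00069, with the median of all genes again at 0.35. With the same upper quartile and with the median set to 0, 3 were lower and 2 higher, at medians of -0.28 and -0.32.

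Worms cannot make heme and depend on uptake and transport of it to supply their globins. Of 8 measurable genes of heme transport and trafficking, out of 9 listed, 2 passed 2-fold upward (against 10.5% of all genes) and 1 downward (against 11.3%). The median log2 difference was 0.49, and 0.35 with the length trend removed. The 3 rescalings raise all mutant values, so a median above 0 stays above 0 under them and is not checked by them. With length accounted for, 3 were past 2-fold upward and 0 downward, against 10.9% and 3.16% of all genes. The hrg-3 gene, a secreted heme chaperone that delivers heme from mother to embryo, had 9.48 against 3.08 FPKM, and hrg-7, a secreted aspartic protease homologue in heme signalling that the table lists as asp-10, had 421.3 against 164.7 FPKM. The heme transporter hrg-4 had 30.7 against 19.5 FPKM, while hrg-6, a homologue of it, had 5.74 against 13.3 FPKM.

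Among tissue markers, all 8 neuronal markers were lower by any amount as deposited, against 55.7% of all genes, and 0 were lower by 2-fold, against 11.3%. Their median of -0.29 turned to 0.18 under rescaling to the same sum, where that of all genes was 0.35. With the same upper quartile and with the median set to 0, 7 were lower and 1 higher, at medians of -0.076 and -0.12. With length accounted for the neuronal median was -0.20, and 1 marker, unc-31 at -1.30, was 2-fold or more lower, against 3.16% of all genes. The 3 measurable hypodermal markers had a median of -0.58 and the 4 intestinal markers one of 0.087. The 3 pharyngeal muscle markers had one of 0.73 and the 4 germ line markers one of 0.35. Under the 3 rescalings the hypodermal median stayed below 0, at -0.12, -0.38 and -0.42. The rescalings raise all mutant values, so the medians above 0 could not turn. Of the pharyngeal markers, myo-1 and myo-2 lay near 1 FPKM, at 1.82 against 0.700 and 1.68 against 0.572 FPKM, mutant against N2. The more abundant tni-4 was lower, at 36.4 against 45.0 FPKM, and the summed pharyngeal list stood at 86.3% of N2. With length accounted for, the hypodermal, intestinal, pharyngeal and germ line medians were -0.13, 0.014, -0.042 and -0.057. The sign of the pharyngeal and germ line medians thus turned. Both measurable sperm markers, spe-11 at 27.2 against 9.11 FPKM and sss-2 at 80.0 against 16.9 FPKM, passed 2-fold upward, against 10.5% of all genes. None of the markers was at the table's floor in either library. Summed over the list, the muscle markers stood at 1759 FPKM in N2 and 2444 FPKM in the mutant, and the neuronal markers at 185.3 and 152.1 FPKM. The part of tissue make-up or of developmental stage in the globin values was not tested.

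**Figure D4:**
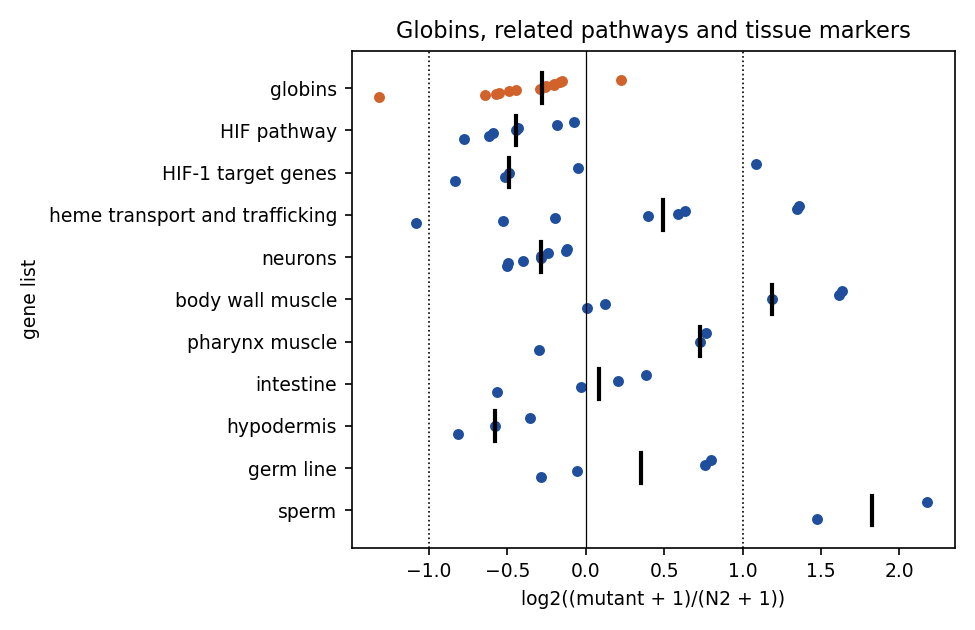
Log2 difference, mutant against N2, of each measurable gene (points) in the globin family, in 3 related pathway lists and in 7 tissue marker lists, with the list median as a bar and dotted lines at 2-fold. The globin median is -0.28, the neuronal median -0.29 and the body wall muscle median 1.19. After centring by length, which is not drawn, these medians were -0.019, -0.20 and 0.69.

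The 33 genes are spread over all 6 chromosomes, with 10 on V, 7 on II, 5 each on IV and X, and 3 each on I and III. Their longest annotated transcripts have 2 to 10 exons. In the deposited table the locus field of 15 of the 33 globins is shared with at least 1 other row, and in the annotation 16 of the 33 share some exon bases with another gene. At least 10% of the exon bases was shared by 3, namely glb-26, glb-17 and glb-29.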

How the data were processed

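Total RNA of 1 N2 and 1 flp-6 mutant library was sequenced after TruSeq version 2 preparation, per the labels' protocols. The submitters' processing notes name TopHat, Cufflinks and the build WBcel235, with no version or setting. The authors deposited FPKM values (1 column per library), their ratio and its log2, and, per the file headers, a p-value and a q-value from their comparison of 1 library with the other. Low FPKM values multiplied by length did not fall on whole-read steps (23.7% for N2 and 24.6% for the mutant lay within 0.1 of a step, against 20% by chance), so the depth is unknown and no counting interval is given.

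Differences are log2((mutant FPKM + 1)/(N2 FPKM + 1)), with a mean of at least 1 FPKM as the filter and 2-fold as the size rule. Coordinates, exons and lengths come from Ensembl release 115 of WBcel235. Length centring split the 12999 measurable genes above 0.0001 FPKM in both libraries into 40 bins by longest transcript and subtracted each bin's median. The members, lists and alternatives were chosen with earlier results of these data known. The rule named every globin with a mean of at least 1 FPKM, those of 0.5 to 1 FPKM, flp-6 and up to 4 measured genes of each pathway list with the largest differences. Other genes were named for their overlap or known role. The calculation was tested on simulated data. Python 3.11.15, numpy 2.4.6, pandas 2.3.3 and matplotlib 3.10.9 were used.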

Additional observations from a re-analysis of the deposited data

How the results depend on the processing

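The count of measurable globins was 33 with no filter and 2 at a mean of at least 5 FPKM, and 14 or 16 under the rescalings. The count of measurable globins at least 2-fold lower was 2 with a pseudocount of 0.1 FPKM, which added glb-14, and 0 under rescaling to the same sum, after centring by length and at a 4-fold rule. The count at least 2-fold higher was 0 under every alternative run. The median log2 difference turned to 0.087 with the libraries rescaled to the same sum, over the 16 globins then past the filter. It was -0.36 and -0.17 with pseudocounts of 0.1 and 5 FPKM, -0.19 with no filter, -0.81 over the 2 globins with a mean of at least 5 FPKM, -0.10 with the same upper quartile, -0.13 with the median set to 0 and -0.019 after centring by length. No paired analysis was possible because each genotype has 1 library. Depth is unknown, so the counting error of the globin differences could not be estimated.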
